A study of Mus musculus with 15 samples.

Results

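Psmc3ip and Invs are 2 of the 45777 genes in the expression tables of a mouse striatum study, taken by their gene symbols. Both were picked because their levels were higher and widely spread in grandsons of methamphetamine-treated males, so their levels in that generation are given as a description, with no test. RNA was sequenced from the striatum of wild-type males of the outbred ICR stock, all aged 7 weeks. The founders were 6-week-old ICR males that received subcutaneous methamphetamine (METH, a psychostimulant that releases dopamine) at 5 mg/kg, or saline at 10 mL/kg, for 21 days, and were then mated with untreated females. The groups were F1 METH sons (n = 3), F1 saline sons (n = 4), F2 METH grandsons (n = 4) and F2 saline grandsons (n = 4). To obtain F2 males, F1 males were bred to untreated females. F1 and F2 mice are not labelled as having been treated themselves. Litters and founders of single animals are not labelled, so p-values measure only the spread between these animals.

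Psmc3ip encodes a protein, also called HOP2, that pairs with MND1 and helps the meiotic recombinase DMC1 to exchange DNA strands between homologous chromosomes. It is known above all for meiosis in the germ line, and was named for its binding to the proteasome ATPase PSMC3. It has also been reported as a coactivator of nuclear hormone receptors. Invs encodes inversin, an ankyrin-repeat protein that gives its name to a segment at the base of the primary cilium, the inversin compartment. Inversin is needed in the mouse embryo for the left-right axis and in the kidney, and it binds dishevelled proteins of the Wnt pathway. Neurons and glia of the striatum carry primary cilia.

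The genes lie on different chromosomes. Psmc3ip (gene ID 19183) occupies chr11:101092141-101095435 on the minus strand, and Invs (gene ID 16348) occupies chr4:48279707-48431956 on the plus strand (GRCm38.p6, the same build as mm10). The deposited tables list 3 RefSeq transcripts for Psmc3ip and 15 for Invs. Their promoter windows, 250 bases before to 50 bases after the start used for each window, are shown because both genes stood high in the same group. For Psmc3ip this is the start of the gene span given above, while for Invs it lies within that span. The windows are chr11:101095386-101095685 on the minus strand and chr4:48279510-48279809 on the plus strand, from RefSeq on GRCm38.p6, written 5′ to 3′ along each gene. Capitals mark matches to the motifs named after the sequences.
Psmc3ip promoter: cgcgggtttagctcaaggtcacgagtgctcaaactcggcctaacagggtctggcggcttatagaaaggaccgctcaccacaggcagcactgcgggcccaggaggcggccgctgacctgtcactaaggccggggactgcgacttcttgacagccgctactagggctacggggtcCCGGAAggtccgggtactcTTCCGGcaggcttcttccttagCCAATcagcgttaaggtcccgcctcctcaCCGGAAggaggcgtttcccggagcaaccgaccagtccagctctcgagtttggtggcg
Invs promoter: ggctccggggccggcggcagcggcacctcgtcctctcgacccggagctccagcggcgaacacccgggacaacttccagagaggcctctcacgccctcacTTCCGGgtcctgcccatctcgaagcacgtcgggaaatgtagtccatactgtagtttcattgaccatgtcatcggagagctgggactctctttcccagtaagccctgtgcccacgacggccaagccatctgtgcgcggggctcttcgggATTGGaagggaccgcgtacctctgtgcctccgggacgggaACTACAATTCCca
Each motif was searched on both strands, and no marked matches overlap.

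The GC content was 62.7% for Psmc3ip and 63.0% for Invs, against a median of 52.7% over 32851 RefSeq promoters of the same length. The windows held 24 and 25 CpG dinucleotides, in that gene order, where the median promoter held 7. The ETS core CCGGAA, found in 14.9% of all promoters, matched 3 times in Psmc3ip and 1 time in Invs. The CCAAT box CCAAT, found in 37.4% of all promoters, matched once in each. The ZNF143 core, found in 0.286% of all promoters, matched in Invs only; this motif was added after the sequences had been read. The GC box GGGCGG (35.7% of all promoters), TATAAA (13.6%), TGACGTCA (1.79%), CACGTG (7.15%) and the NRF1 palindrome (0.971%) had no match in either window. The first 126 bases of the neighbouring gene Erp44, which runs the opposite way, lie inside the Invs window.

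Total counts per library ranged from 31563806 to 50573906. The striatal neuron genes Ppp1r1b, Drd1 and Drd2 were present in all 15 libraries, at 1336 to 2424, 160.0 to 296 and 179 to 358 CPM (CPM, read counts scaled to library size after trimmed mean of M values, TMM, normalization). Slc17a7, a marker of cortical excitatory neurons, exceeded 100 CPM in F1 METH replicate 3, F1 saline replicates 1 and 3, F2 METH replicate 2 and F2 saline replicate 4. In whole tissue, fewer cells of a type and less RNA per cell cannot be told apart. The labels name the cell type as neuronal, while glial markers were abundant in every library.

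Psmc3ip was a low-level transcript in the striatum and stood higher in 3 of the 15 animals, all F2 METH mice. In F2 METH mice, replicates 1 to 4 had 3.20, 8.54, 7.59 and 8.21 CPM, from 122, 401, 240 and 295 reads. In F2 saline mice, replicates 1 to 4 had 2.40, 2.88, 2.99 and 2.54 CPM, from 89, 99, 150 and 91 reads. Replicates 2, 3 and 4 of the F2 METH group were high, while replicate 1 sat just above the saline animals. Its 95% Poisson interval for counting error, 2.66 to 3.82 CPM, overlapped those of F2 saline mice, and the interval of the next higher F2 METH replicate began at 6.66 CPM. The mean was 6.89 ± 2.49 CPM in F2 METH and 2.70 ± 0.277 CPM in F2 saline mice (SD, n = 4 each), a fitted log2 fold change of 1.35 (SE 0.27). The F2 METH animals did not overlap with the F2 saline animals, a pattern that 1.34% of the 18093 genes tested in F2 showed in that direction. Since Psmc3ip was chosen on this contrast, nothing is read from that share. Slc17a7 was at 10.8, 130.2, 75.3 and 67.2 CPM in F2 METH replicates 1 to 4, and at 10.5, 9.80, 55.9 and 182 CPM in F2 saline replicates 1 to 4. It was thus lowest in the F2 METH animal with low Psmc3ip, while the F2 saline animal richest in it had 2.54 CPM of Psmc3ip. Without the libraries above 100 CPM of Slc17a7 the Psmc3ip value was 1.20, with 3 animals left in each group. The part of cortical tissue in the Psmc3ip levels was not tested.

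In F1, which the choice did not use, Psmc3ip did not differ beyond the spread between animals. F1 METH replicates 1 to 3 had 3.43, 3.49 and 2.54 CPM, from 110, 134 and 84 reads. F1 saline replicates 1 to 4 had 2.79, 3.45, 2.73 and 3.90 CPM, from 101, 122, 104 and 148 reads. The groups overlapped, with the lowest animal in the METH group and the highest in the saline group. The mean was 3.15 ± 0.534 CPM in F1 METH (SD, n = 3) and 3.22 ± 0.561 CPM in F1 saline mice (SD, n = 4). The log2 fold change was -0.029 (SE 0.21, 95% interval -0.50 to 0.44), with an adjusted p = 0.994 from the edgeR fit over 18499 genes. Neither Psmc3ip nor Invs had all F1 METH animals above, or all below, the F1 saline animals, as 3.08% and 2.42% of genes had. edgeR called 0 genes in F1, 0.0% of those tested, while 774 genes (4.18%) passed an unadjusted threshold of 0.05, DESeq2 called 7 and limma-voom 3. The sign of the Psmc3ip value in F1 turned positive when F1 METH replicate 3 or F1 saline replicate 4 was left out, to at most 0.10. The difference between generations was not tested, since F2 was used to choose the gene.

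Invs showed another pattern: high and low animals occurred in 3 of the 4 groups. In F2 METH mice, replicates 1 to 4 had 51.6, 39.9, 23.1 and 42.6 CPM, from 1966, 1872, 732 and 1529 reads. In F2 saline mice, replicates 1 to 4 had 22.1, 17.6, 18.2 and 23.7 CPM, from 821, 606, 916 and 850 reads. Replicates 1, 2 and 4 of the F2 METH group lay above all F2 saline animals, and replicate 3 lay within their range. The mean was 39.3 ± 11.9 CPM in F2 METH and 20.4 ± 2.97 CPM in F2 saline mice (SD, n = 4 each), a fitted log2 fold change of 0.95 (SE 0.20).

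In F1, high and low Invs levels were present in both groups. F1 METH replicates 1 to 3 had 41.5, 20.7 and 45.0 CPM, from 1331, 795 and 1492 reads. F1 saline replicates 1 to 4 had 20.4, 36.4, 21.0 and 35.5 CPM, from 740, 1288, 798 and 1345 reads. Thus 2 of 3 METH sons and 2 of 4 saline sons stood above 35 CPM, and the groups overlapped. The mean was 35.8 ± 13.2 CPM in F1 METH (SD, n = 3) and 28.3 ± 8.81 CPM in F1 saline mice (SD, n = 4). The log2 fold change was 0.34 (SE 0.30, 95% interval -0.35 to 1.02), with an adjusted p = 0.994 from the edgeR fit. Without the libraries with Slc17a7 above 100 CPM the F1 value turned to -0.21, with 2 animals left in each group, whereas the F2 value was 1.02. The high Invs animals of F1 had 31.0 and 396 CPM of Slc17a7 in METH mice and 98.0 and 9.47 CPM in saline mice, and the low ones had 24.0 CPM in METH mice and 322 and 526 CPM in saline mice. The part of cortical tissue in the Invs levels was not tested.

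**Figure D1:**
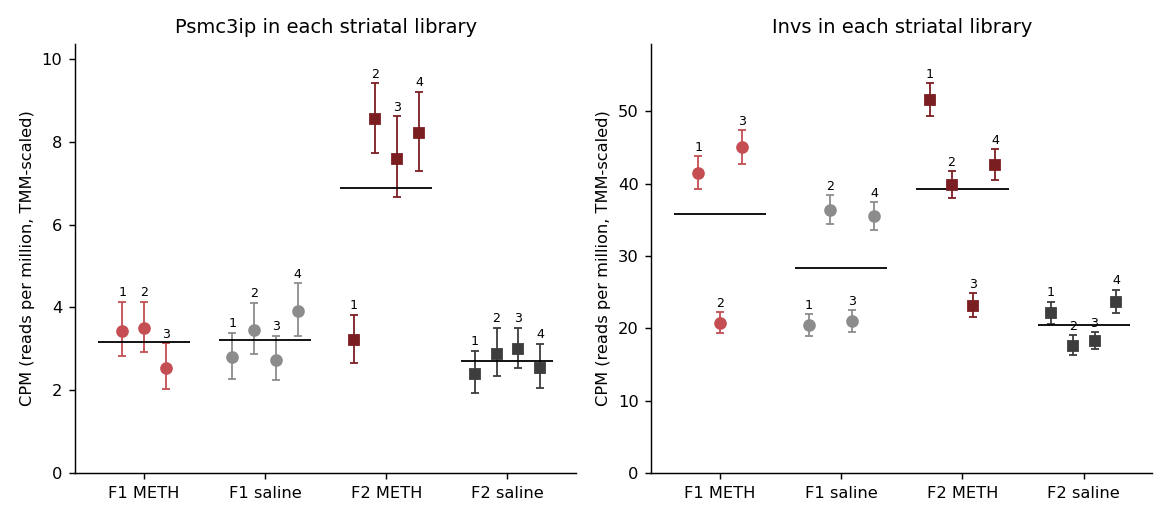
Psmc3ip (left) and Invs (right) in CPM, 1 point per animal with its replicate number, bars giving the 95% Poisson interval of counting error and horizontal lines the group mean. For Psmc3ip 3 F2 METH animals stand at 7.59 to 8.54 CPM and all other animals at 3.90 CPM or below, whereas Invs stands above 35 CPM in 2 F1 METH, 2 F1 saline and 3 F2 METH animals.

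Ordered over the 15 libraries, Psmc3ip ran from 2.40 to 8.54 CPM with its widest relative step between 3.90 and 7.59 CPM, a 1.94-fold gap. Above it were 3 F2 METH animals and no others. The 12 libraries below the gap followed each other in small steps. Sorted values lie close to their neighbours by construction, so this does not place the 12 libraries at a common level. Counting intervals of the lowest, F2 saline replicate 1 (1.93 to 2.95 CPM), and of F1 saline replicate 4 (3.30 to 4.59 CPM) did not overlap. Invs ran from 17.6 to 51.6 CPM with its widest relative step between 23.7 and 35.5 CPM, a 1.5-fold gap. Above it were 7 libraries, namely 2 of F1 METH, 2 of F1 saline, 3 of F2 METH and 0 of F2 saline. The highest animal, F2 METH replicate 1, stood clear of the next in counting interval. Below the gap, the intervals of F2 saline replicate 2 (16.2 to 19.1 CPM) and F2 saline replicate 4 (22.1 to 25.4 CPM) did not overlap. Thus the F2 saline group was the group without a high Invs animal.

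The authors' length-corrected TPM values gave the same picture and allow the genes to be compared with each other. Psmc3ip averaged 18.6 ± 6.85 TPM in F2 METH and 7.22 ± 0.718 TPM in F2 saline mice, and 7.49 ± 1.21 TPM in F1 METH and 7.83 ± 1.19 TPM in F1 saline mice. Invs averaged 18.3 ± 5.15 TPM in F2 METH and 9.50 ± 1.69 TPM in F2 saline mice, and 14.8 ± 5.58 TPM in F1 METH and 12.2 ± 3.63 TPM in F1 saline mice (all SD). Per length, the genes were thus at like levels in F2 METH mice although Invs had more reads. The ratio of CPM to the authors' FPKM gives the apparent transcript length behind the reads, here scaled to a common value per library. It was 1.07 to 1.09 kb in F2 METH and 1.07 to 1.08 kb in F2 saline mice for Psmc3ip, and 1.06 to 1.08 kb in F1 METH and 1.08 to 1.10 kb in F1 saline mice. For Invs it was 6.17 to 6.24 kb in F2 METH and 6.13 to 6.40 kb in F2 saline mice, and 6.12 to 6.28 kb in F1 METH and 6.10 to 6.19 kb in F1 saline mice. The animals with high levels thus did not stand apart in apparent length for either gene.

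The high animals were not the same for the 2 genes. F2 METH replicate 1 had the highest Invs level of all 15 libraries and the lowest Psmc3ip level of its group. F2 METH replicate 3 had the lowest Invs level of its group with Psmc3ip at 7.59 CPM. Replicates 2 and 4 were high in both. Over the 7 F1 libraries, log2 CPM of the genes had a Pearson r of 0.16 (two-sided exact permutation p = 0.741) and a Spearman rho of -0.25 (exact permutation p = 0.595), with adjusted p = 0.741 for both. Without the 2 libraries farthest from the median of Psmc3ip, r was 0.58 over 5 libraries, and leaving out 1 library at a time gave -0.023 to 0.67. As a description, r was 0.28 over the 11 libraries without F2 METH and 0.32 over all 15.

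**Figure D2:**
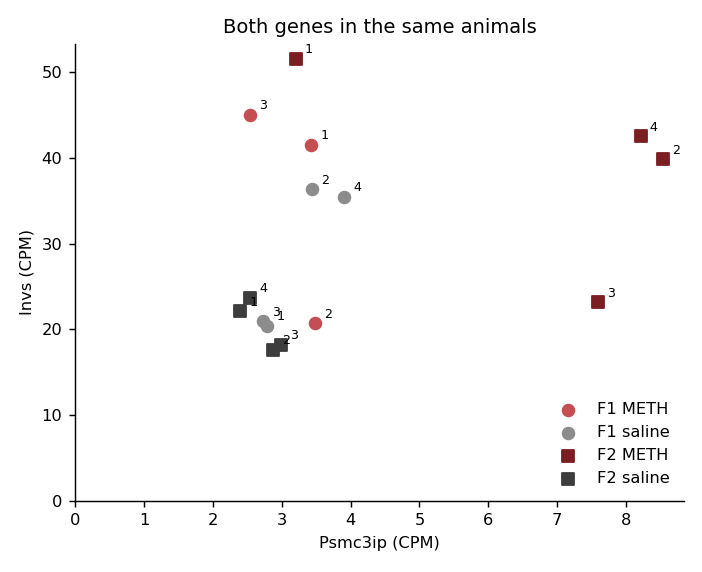
Psmc3ip (horizontal) against Invs (vertical) in CPM, 1 point per animal with its replicate number, colours and shapes giving the group. F2 METH replicate 1 is high for Invs alone, replicate 3 high for Psmc3ip alone, and replicates 2 and 4 high for both.

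The spread between animals was set against that of all tested genes, as the SD of log2 CPM within a group. For Invs, 90.2% of genes had a smaller SD in F1 METH and 82.2% in F1 saline mice. In F2 the share was 88.8% in METH and 57.7% in saline mice. Its coefficient of variation was 36.8% in F1 METH and 31.1% in F1 saline mice, where counting error alone would give 2.88% and 3.10%. For Psmc3ip, 63.7% of genes had a smaller SD in F1 METH and 60.8% in F1 saline mice, and 94.2% did in F2 METH and 41.3% in F2 saline mice. Its coefficient of variation in F2 saline mice, 10.2%, was close to the 9.66% of counting error, while in F2 METH mice it was 36.1% against 6.15%. Invs was thus a widely spread gene also in both F1 groups, which were not used to pick it. Psmc3ip ranked higher in spread in F2 METH mice than in the other groups, and that group was used to pick it.

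**Figure D3:**
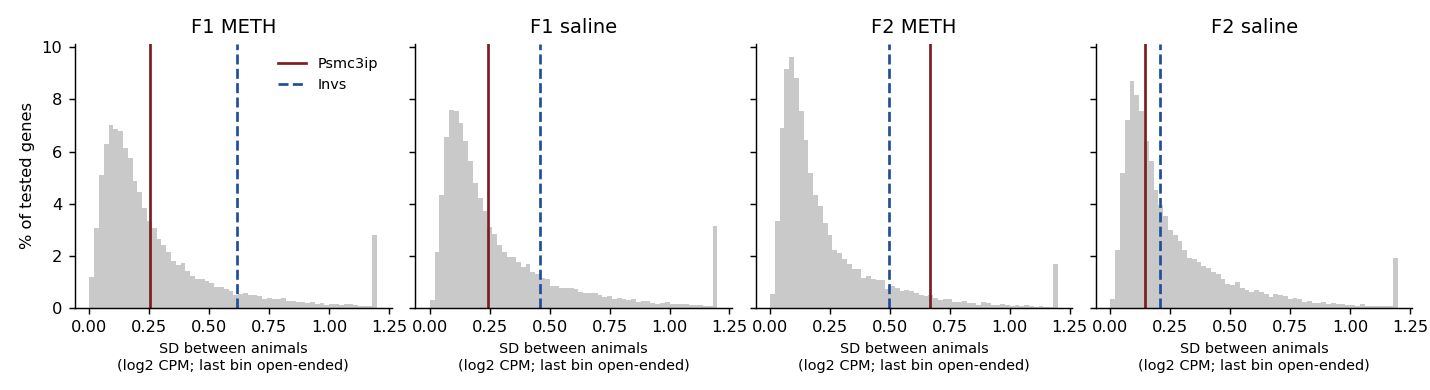
Percentage of tested genes (vertical) by the SD of log2 CPM between animals (horizontal) in each group, with lines at Psmc3ip and Invs. The Invs line lies in the right tail in both F1 groups and in F2 METH, and the Psmc3ip line does so in F2 METH, where 94.2% of genes had a smaller SD.

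Genes beside the members on the chromosome were described next, since overlapping genes cannot be told apart if reads are counted without strand. Whether the strand was used in counting is not given. Psmc3ip ends within 67 bases of overlap with Mlx, a transcription factor gene on the opposite strand. Mlx was at 19.1 to 22.6 CPM in F2 METH and 16.8 to 22.6 CPM in F2 saline mice, and its levels in the 3 high Psmc3ip animals lay within the saline range. Retreg3, an ER-phagy receptor gene 886 bases upstream of Psmc3ip, was at 66.1 ± 2.74 CPM in F2 METH and 68.5 ± 6.52 CPM in F2 saline mice. Coasy, encoding coenzyme A synthase and lying 5521 bases beyond the other end, was at 16.2 ± 1.62 CPM in F2 METH and 17.2 ± 1.18 CPM in F2 saline mice. Of 27 features within 250 kb, 25 were tested in each generation. edgeR called 0 of them in F2, where it called 0.0% of all genes and 863 genes (4.77%) passed an unadjusted 0.05, and 0 of these 25 did. Across all F2 genes DESeq2 called 9 and limma-voom 1. Of the 25 neighbours, edgeR called 0 in F1, with 2 higher at an unadjusted p under 0.05 (background 2.52%), Cntnap1 (log2 fold change 0.34) and Aoc3 (0.92). For Aoc3 all F1 METH animals lay above the F1 saline animals, as for 3.08% of genes tested in F1.

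Invs shares its ends with other genes too. Erp44, an endoplasmic reticulum chaperone gene, starts 71 bases away on the opposite strand and was at 20.7 to 25.8 CPM in F2 METH and 23.6 to 28.4 CPM in F2 saline mice. Tex10, whose end overlaps Invs by 1099 bases on the opposite strand, was at 12.6 to 16.6 CPM in F2 METH and 13.4 to 17.8 CPM in F2 saline mice. The pseudogene Gm12435 inside Invs was at 11.2 ± 0.640 CPM in F2 METH and 11.5 ± 1.12 CPM in F2 saline mice, a level that is uncertain for a pseudogene. Levels in these 3 genes thus overlapped between the F2 groups. Msantd3, the nearest gene beyond Tex10, had a log2 fold change of -0.0031 in F2 and 0.039 in F1.

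Of 9 features within 250 kb of Invs, 8 were tested, and edgeR called 0 in either generation. Stx17, a syntaxin gene of autophagosome fusion that ends 93199 bases before Invs, was the neighbour with an unadjusted p under 0.05 in F2 (higher, background 2.11%; log2 fold change 0.24, SE 0.092, adjusted p = 0.960). F2 METH replicates 1 to 4 had 27.6, 27.4, 26.7 and 25.5 CPM of Stx17, and F2 saline replicates 1 to 4 had 24.5, 19.0, 21.9 and 25.3 CPM. All F2 METH animals lay above the F2 saline animals, as for 1.34% of all genes tested in F2, with replicate 4 of each group close together. Over all 15 libraries Stx17 had a Pearson r of 0.67 with Invs in log2 CPM, and 0.69 without the F2 METH libraries. For the other tested neighbours r over 15 libraries ran from -0.48 (Erp44) to 0.046. Without the F2 METH libraries their r ran from -0.83 (Erp44) and -0.61 (Tmeff1) to 0.22 (Nr4a3). F1 METH mice had 25.3, 24.7 and 29.7 CPM and F1 saline mice 23.7, 28.2, 27.4 and 25.7 CPM of Stx17, which overlapped (log2 fold change 0.019).

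**Figure D4:**
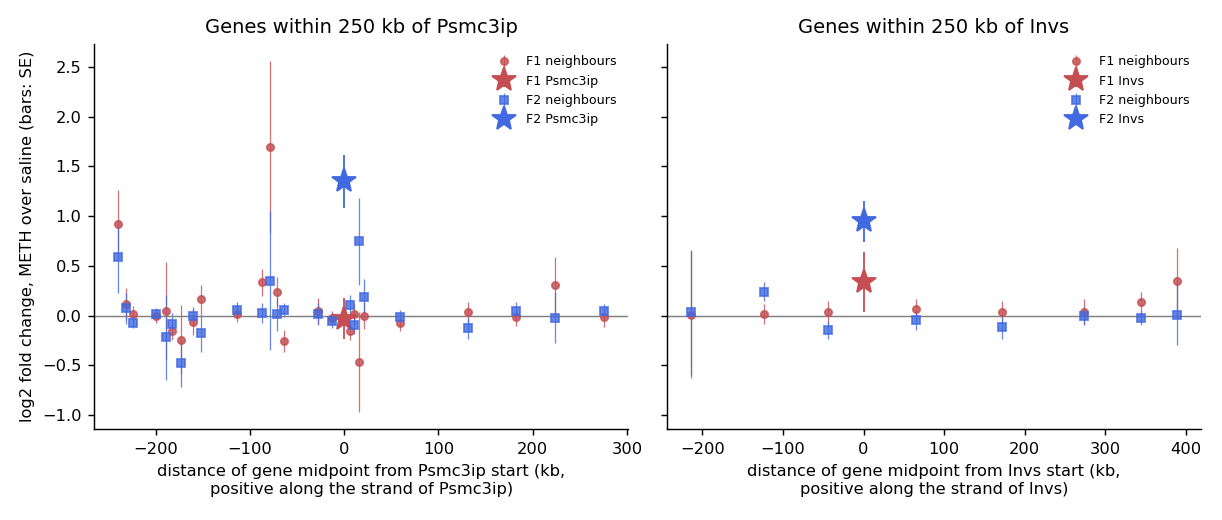
Log2 fold change of METH over saline (vertical, bars giving the SE) for tested genes within 250 kb of Psmc3ip (left) and Invs (right), by distance in kb of the gene midpoint from the member's start. The stars of F2, at 1.35 for Psmc3ip and 0.95 for Invs, stand above the F2 values of their neighbours. Both members were chosen for high F2 METH levels and the neighbours were not, so nothing is read from this. The highest F2 value among Psmc3ip neighbours was 0.74 (Hsd17b1, SE 0.44).

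Of the direct partners of Psmc3ip, Mnd1 and Dmc1 were at low levels and Psmc3 was abundant, and edgeR called none of those tested. Mnd1, its obligate partner, had 22 reads over the F2 METH libraries and 25 over the F2 saline libraries, and 0 over the F1 METH and 32 over the F1 saline libraries, too few to be tested. The meiotic recombinase gene Dmc1 was at 0.608 ± 0.197 CPM in F2 METH and 0.719 ± 0.322 CPM in F2 saline mice. Psmc3 was at 89.6 ± 1.73 CPM in F2 METH and 92.9 ± 4.25 CPM in F2 saline mice. In F1 the log2 fold changes were -0.38 for Dmc1 and -0.10 for Psmc3. Thus Psmc3ip stood higher in F2 METH mice without a higher mean level of Dmc1 or Psmc3.

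Of 29 genes of strand exchange, 22 passed the filter on low counts in F2, and 11 had a positive and 11 a negative log2 fold change, with a median log2 fold change of -0.0020, equal to that of all genes. edgeR called 0, and 2 were higher at an unadjusted p under 0.05 (background 2.11%), Palb2 (0.56, SE 0.23) and Rad54l (0.56, SE 0.23), which serve homologous recombination. Swi5 had the next smallest p (-0.19). In F1, 23 were tested, 12 higher and 11 lower, with a median of 0.0047 and 0 at an unadjusted p under 0.05; the smallest p values belonged to Brca1 (0.46, SE 0.28) and Fignl1 (-0.59).

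The list of 33 other meiotic chromosome genes had 18 tested members in F2, 14 higher and 4 lower, with a median of 0.22 against -0.0020 for all genes. Of all genes tested in F2, 49.5% were higher. edgeR called 0, with 0 at an unadjusted p under 0.05. Ccnb1ip1, a crossover factor gene, was at 0.372 CPM in F2 METH and 0.204 CPM in F2 saline mice, from 55 and 32 reads. Its F2 METH animals all lay above the F2 saline animals, as for 1.34% of genes tested in F2. Mcmdc2 had a log2 fold change of 0.36. In F1, 9 of 18 were higher, with a median of -0.0012 and 2 higher at an unadjusted p under 0.05 (background 2.52%), the helicase gene Hfm1 (0.64, SE 0.19) and the axis gene Sycp2 (0.50, SE 0.21), followed by Rec114 (0.96). For Hfm1 all F1 METH animals lay above the F1 saline animals, as for 3.08% of genes tested in F1. The 6 proteasome ATPase genes were mostly lower, 5 in F2 (median -0.055) and 6 in F1 (median -0.11), with 0 at an unadjusted p under 0.05. Psmc5 was at -0.13 and Psmc6 at -0.11 in F2, and Psmc2 at -0.13 and Psmc5 at -0.11 in F1. Of 7 tested hormone receptor genes, 2 were lower at an unadjusted p under 0.05 in F2 (background 2.66%), Esr1 (-0.88, SE 0.37) and Nr3c1 (-0.15, SE 0.064), the estrogen and glucocorticoid receptors. Esr1 was at 0.190 to 0.557 CPM in F2 METH and 0.597 to 1.12 CPM in F2 saline mice, groups that did not overlap in a direction shared by 1.2% of genes. Pgr had the next smallest p (-0.13). In F1, Esr1 (-0.52) and Thrb (-0.11) did not pass that threshold. edgeR called 0 members of these lists in either generation.

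Partners of inversin in its compartment had log2 fold changes close to 0 or within their spread. Anks6, an ankyrin-repeat partner, was at 16.0 ± 0.605 CPM in F2 METH and 16.0 ± 0.396 CPM in F2 saline mice. The kinase gene Nek8 was at 1.91 ± 0.272 CPM in F2 METH and 2.12 ± 0.254 CPM in F2 saline mice. In F1 these genes had log2 fold changes of -0.088 (Anks6) and 0.16 (Nek8). Each difference was within the spread between animals.

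Of 20 tested genes of the inversin compartment and nephrocystin list, 11 were higher in F2 (median 0.0034) and 9 in F1 (median -0.017). Wdr19, an intraflagellar transport gene, was the single member at an unadjusted p under 0.05 in F2 (0.21, SE 0.081, background 2.11%), and there was none in F1. Cep164 (0.23) and Ahi1 (-0.084) followed in F2, and Nphp4 (0.19), Iqcb1 (-0.12) and Ahi1 (-0.12) had the smallest p in F1. Of 27 primary cilium genes, 15 were higher in F2 (median 0.024) and 13 in F1 (median -0.012). At an unadjusted p under 0.05 there was Bbs2 in F2 (0.30, SE 0.087), and Bbs7 (0.27, SE 0.097) and Pkd1 (0.22, SE 0.094) in F1, all higher. The background of higher genes was 2.11% in F2 and 2.52% in F1. Bbs2 and Bbs7 encode subunits of the BBSome, a ciliary cargo complex. For Bbs7 all F1 METH animals lay above the F1 saline animals, as for 3.08% of genes tested in F1. Bbs7 (0.13) and Bbs9 (0.19) followed in F2, and Ift20 (-0.17) in F1. Of the Wnt and planar polarity genes, 13 of 24 were higher in F2 (median 0.029) and 11 of 23 in F1 (median -0.021). The polarity gene Ptk7 was higher in F2 (0.37, SE 0.14, background 2.11%) and the ligand gene Wnt5a lower in F1 (-0.88, SE 0.27, background 1.66%) at an unadjusted p under 0.05. Vangl1 (-0.38) and Axin1 (0.16) followed in F2, and Vangl1 (0.40) and Celsr1 (0.30) in F1. In F1, Vangl1 also had all METH animals above the saline animals, whereas its F2 groups overlapped. Of 9 left-right axis genes, 4 passed the filter on low counts in F2 and 2 in F1, among them Dand5, a Nodal antagonist (-0.083 in F2 and -0.020 in F1). The others named were Nodal (-0.79) and Mmp21 (0.48) in F2 and Gdf1 in F1. Gdf1 was at 6.77 to 11.7 CPM in F1 METH and 2.98 to 108 CPM in F1 saline mice, and with so wide a spread no fold is given. edgeR called 0 members of these lists in either generation.

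**Figure D5:**
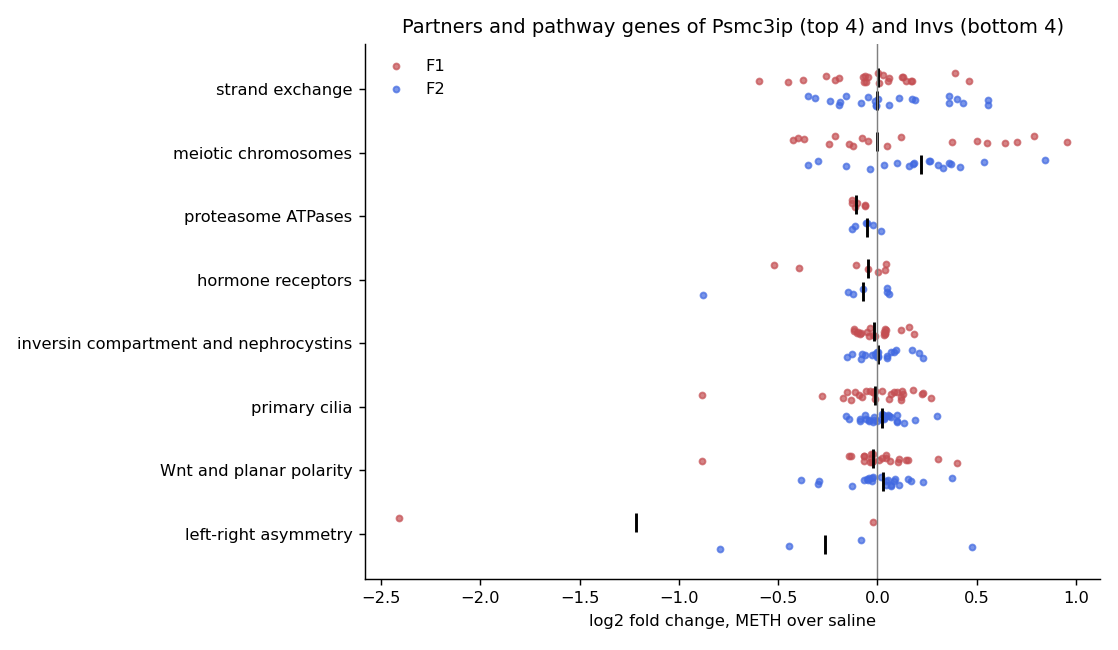
Log2 fold change of METH over saline (horizontal) for the tested genes of 8 lists, F1 above F2 within each list, with black marks at list medians. Medians lie near 0 apart from meiotic chromosome genes in F2 (0.22), proteasome ATPase genes in F1 (-0.11) and the sparsely tested left-right list.

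Markers of ciliated and dividing cells were measured beside the members. The summed level of 11 ependymal markers was 28.0 to 55.1 CPM in F2 METH and 32.2 to 44.9 CPM in F2 saline mice, and 26.1 to 30.1 CPM in F1 METH and 17.9 to 55.1 CPM in F1 saline mice. Their sum in F2 METH replicate 1, the highest Invs animal, was 44.6 CPM, and 55.1 CPM in replicate 3, the lowest Invs animal of that group. The 9 neuroblast and proliferation markers summed to 74.5 to 127 CPM in F2 METH and 82.4 to 98.8 CPM in F2 saline mice. Replicates 2, 3 and 4 of F2 METH, with high Psmc3ip, had 74.5, 127 and 90.9 CPM of them, and replicate 1 had 108 CPM. Of these lists 9 ependymal and 9 neuroblast and proliferation markers had reads in every library, none was at 0 throughout, and the groups overlapped in each generation. The 5 endothelial markers summed to 196 to 206 CPM in F1 METH and 169 to 189 CPM in F1 saline mice, which did not overlap. Of single genes tested in F1, 3.08% had all METH animals above all saline animals. In F2 the endothelial sums overlapped, at 142 to 171 CPM in METH and 132 to 182 CPM in saline mice. No other sum of the 10 marker lists lacked overlap in either generation. The summed levels of choroid plexus, cortical, oligodendrocyte, astrocyte, microglia, erythrocyte and spiny projection neuron markers overlapped between METH and saline mice in both generations. Most glial markers had fold changes of 1 sign within a generation. In F2, 0 of 8 oligodendrocyte, 0 of 6 astrocyte and 0 of 6 microglia markers had a higher fitted level in METH mice. In F1, 8 of 8 oligodendrocyte, 5 of 6 astrocyte and 6 of 6 microglia markers did. Of all genes tested, 49.5% in F2 and 49.1% in F1 were higher in METH mice. A single animal per generation had the highest sum of each of these lists. It was F2 saline replicate 1 in F2 (oligodendrocyte 13111 CPM) and F1 METH replicate 3 in F1 (oligodendrocyte 10666 CPM). A higher fitted level was also seen for 9 of 11 ependymal markers in F2 and 3 of 11 in F1, and for 9 of 10 spiny projection neuron markers in either generation. edgeR called 0 markers of these lists. Their part in the levels of the 2 genes was not tested.

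Genes whose level most resembled that of each member over the 15 libraries were named from 15225 genes tested in both generations with a mean of at least 1 CPM. For Psmc3ip these were Gal3st3, a sulfotransferase gene (r = 0.82), Carm1, an arginine methyltransferase gene (0.82), Abcb4, a phospholipid transporter gene (0.78), Trim11 (0.76) and Postn (0.76). Without the F2 METH libraries, r over 11 libraries was 0.089 for Gal3st3, 0.23 for Carm1, 0.047 for Abcb4, 0.14 for Trim11 and 0.78 for Postn. The likeness of the first 4 thus rested on the F2 METH libraries. Postn, encoding the matrix protein periostin, was at 9.66 to 11.6 CPM in F2 METH and 7.36 to 9.44 CPM in F2 saline mice.

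For Invs these genes were Tmem51 (r = 0.73), Ttc5 (0.73), Trhr2 (0.73), Bbs2 (0.72) and Hapln3 (0.70), after 6 predicted or noncoding symbols had been passed over. Over the 11 libraries without F2 METH, r was 0.73, 0.86, 0.70, 0.67 and 0.64 in the same order. Trhr2, a receptor gene for thyrotropin-releasing hormone, was at 9.90 to 12.5 CPM in F2 METH and 5.64 to 12.1 CPM in F2 saline mice, and at 7.06 to 15.3 CPM in F1 METH and 8.70 to 9.46 CPM in F1 saline mice. These correlations share libraries, depth and groups, and were the highest among many genes, so they describe these animals only.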

How the data were processed

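Per the submitters' processing notes, the tools were HISAT2 2.1.0, StringTie 2.1.3b, Trimmomatic and bcl2fastq 2.20.0, with the mouse build mm10; their settings and the strand of counting are not given in these sources. Each generation has 1 deposited table of 45777 features, with whole-number counts as well as FPKM and TPM scaled by the authors, per the file headers. Samples were assigned to the 45 value columns by their names. The members and gene lists were chosen with earlier results of these data known.

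Counts were fitted per generation with edgeR 4.0.16 (glmQLFit and glmQLFTest, TMM, filterByExpr at 10 reads) in R 4.3.3, and p-values were adjusted by Benjamini-Hochberg over all genes with a threshold of 0.05. SE is the fold change divided by the square root of F. Genes were named by rule: the members, their direct partners, up to 3 genes with the smallest p per list and generation, nearest and overlapping features and those within 250 kb at an unadjusted p under 0.05, and the 5 most alike genes per member; some genes that this rule names are not reported here. Poisson intervals cover counting error only. Alternatives were DESeq2 1.42.0, limma-voom and limma-trend (limma 3.58.1), other filters, 1 fit of all 15 libraries, a block for the replicate number, and fits without each library in turn; libraries with Slc17a7 above 100 CPM were left out as a choice made after seeing the data. The 21 replicate pairs differed by more than sampling noise (chi-square per degree of freedom 15.0 to 60.4). On simulated data with 200 changed genes, edgeR called 46.3% of genes changed 2-fold in F1 (18499 genes, 4 false calls) and 58.2% in F2 (18093 genes, 9 false calls). For genes changed 1.5-fold the shares were 17.9% in F1 and 47.8% in F2, and for 4-fold 77.3% and 90.9%. Genes of any level were drawn independently of each other, without shared differences in tissue content. The shares therefore need not hold for Psmc3ip or Invs. Figures used Python 3.11.15 and matplotlib 3.10.9.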

Additional observations from a re-analysis of the deposited data

How the results depend on the processing

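Both genes were chosen for higher levels in F2 METH mice, so the sign of their F2 values was fixed by the choice and is no sign of stability. The F2 log2 fold change ran from 0.97 to 1.35 for Psmc3ip and from 0.71 to 1.02 for Invs over the other settings, and from 1.23 to 1.58 for Psmc3ip and 0.79 to 1.13 for Invs when 1 library was left out. In F1, neither passed an adjusted threshold under any alternative run; without F1 METH replicate 2, Invs (0.61) passed an unadjusted 0.05. Psmc3ip in F1 turned to 0.071 with the replicate block (leaving out 1 library gave -0.11 to 0.10), and Invs in F1 turned to -0.21 without the libraries with Slc17a7 above 100 CPM (leaving out 1 library gave 0.13 to 0.61). The correlation of the genes in F1 ran from -0.023 to 0.67 when 1 library was left out. The cause of these turns was not tested. In F1, edgeR's 0 calls became 7 with DESeq2, 3 with limma-voom, 1 with limma-trend on TPM (either pseudocount) or FPKM, 1 without the Slc17a7-rich libraries and 1 in the fit of all 15 libraries; leaving out 1 library gave 0 to 2. In F2, they became 9 with DESeq2, 1 with limma-voom and 1 without the Slc17a7-rich libraries; leaving out 1 library gave 0 to 1. Same-numbered libraries did not deviate together throughout (r of -0.035 to 0.40 over 3 F1 pairs and -0.062 to 0.039 over 4 F2 pairs), so the numbers were not taken as pairs; under the replicate block edgeR called 0 genes in each generation. Psmc3ip rested on 84 to 401 reads per library; its coefficient of variation was 17.0% in F1 METH and 17.4% in F1 saline mice, against 9.56% and 9.18% from counting alone.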

Other observations

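The labels carry an animal number besides the replicate number, and some numbers recur between generations; whether this marks descent is not stated. Among METH animals, number 2 had 51.6 CPM of Invs in F2 and 41.5 CPM in F1, and number 9 had 42.6 CPM in F2 and 45.0 CPM in F1. Numbers 5 and 6, present in F2 METH alone, had 39.9 and 23.1 CPM, and number 3, present in F1 METH alone, had 20.7 CPM. Among saline animals, number 1 had 22.1 CPM in F2 and 20.4 CPM in F1, number 3 had 17.6 CPM in F2 and 36.4 CPM in F1, number 6 had 18.2 CPM in F2 and 21.0 CPM in F1, and number 7 had 23.7 CPM in F2 and 35.5 CPM in F1. For Psmc3ip, METH number 2 had 3.20 CPM in F2 and 3.43 CPM in F1, and number 9 had 8.21 CPM in F2 and 2.54 CPM in F1.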
